A study of Homo sapiens with 6 samples.

Results

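The levels of 10 genes that run the cell division cycle were compared in Hep3B cells after ultraviolet (UV) irradiation: the cyclins CCNA2, CCNB1, CCND1 and CCNE1, the cyclin-dependent kinases CDK1, CDK2 and CDK4, the inhibitor CDKN1B, the kinase WEE1 and the transcription factor MYBL2. All features of a splicing-sensitive array that the platform annotation names for these genes were taken, which gave 306 of 40146 named features and 10 of 843 named genes. Hep3B is an established hepatoma cell line of human origin without functional p53. Cells were irradiated once with 10 J/m2 UV light and their RNA was collected after 6 hours, and untreated Hep3B cells were the control. RNA of irradiated and control cells was hybridized together on 2-colour arrays in 3 biological replicates, each with the irradiated RNA in Cy5 (direct array) and again in Cy3 (dye-swap array), 6 arrays in all. Every value is a log2 ratio, read as UV over untreated. This direction is likely but not stated with the values: it rests on irradiated RNA being labelled with Cy5 on the direct arrays, and direct and dye-swap columns correlate above 0, so that all 6 columns run the same way. With the sign turned, every "lower" would read "higher", and WEE1 would have the highest mean of the members and MYBL2 the lowest. Then 2 of 8 members would be lower, against 30.3% of all genes. A gene value is the mean over its features, a replicate value averages both of its arrays, and the SE comes from limma over 3 replicates.

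Progress through the cell cycle depends on cyclins, which are made and destroyed in turn, and on the kinases they switch on. Cyclin D with CDK4 and cyclin E with CDK2 act in G1 and at the entry into S phase, cyclin A acts in S phase and G2, and cyclin B with CDK1 drives mitosis. CDKN1B (p27) binds and blocks these kinases, and WEE1 phosphorylates CDK1 and CDK2 on an inhibitory tyrosine, a brake that the DNA damage checkpoint uses. MYBL2 (B-MYB) activates genes of proliferating cells, among them genes of G2 and mitosis.

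Of the 8 members with a value, 6 had a mean below 0 and 2 a mean above 0 after UV, but the signs of CDKN1B and CDK2 differed between direct and dye-swap arrays. WEE1 fell most, to 2.90-fold below the untreated level, followed by CDK1 (1.56-fold), CCNE1 (1.39-fold), CCNA2 (1.22-fold), CCND1 (1.15-fold) and CDKN1B (1.11-fold). MYBL2 was 1.14-fold and CDK2 1.08-fold higher. The single features of CCNB1 and CDK4 were empty on all 6 arrays, so that no level can be given for the mitotic cyclin CCNB1 or the cyclin D kinase CDK4. All 8 passed an adjusted p of 0.05 by limma, where 71.7% of the 775 tested genes passed too, so that passing alone says little of a member. Calls in the lower direction were made for 6 of 8 members and 41.4% of all genes, and calls that were lower and past 1.3-fold for 3 of 8 members (WEE1, CDK1 and CCNE1) and 18.8% of all genes. No member was higher and past 1.3-fold, as were 2.06% of all genes. Of the 4 measured members with 1 feature, 3 were called lower and 1 higher, against 49.8% and 23.6% of genes with 1 feature, and of the 4 with more features 3 were lower and 1 higher, against 35.8% and 34.8% of genes with 3 or more. In each orientation alone 6 members were called with the same sign in both, as were 44.5% of all genes. In bulk RNA, fewer cells in one phase of the cycle and less RNA of a gene in each cell cannot be told apart. A rise or fall is also relative to the bulk of the features, since every array was normalized to itself.

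**Figure D1:**
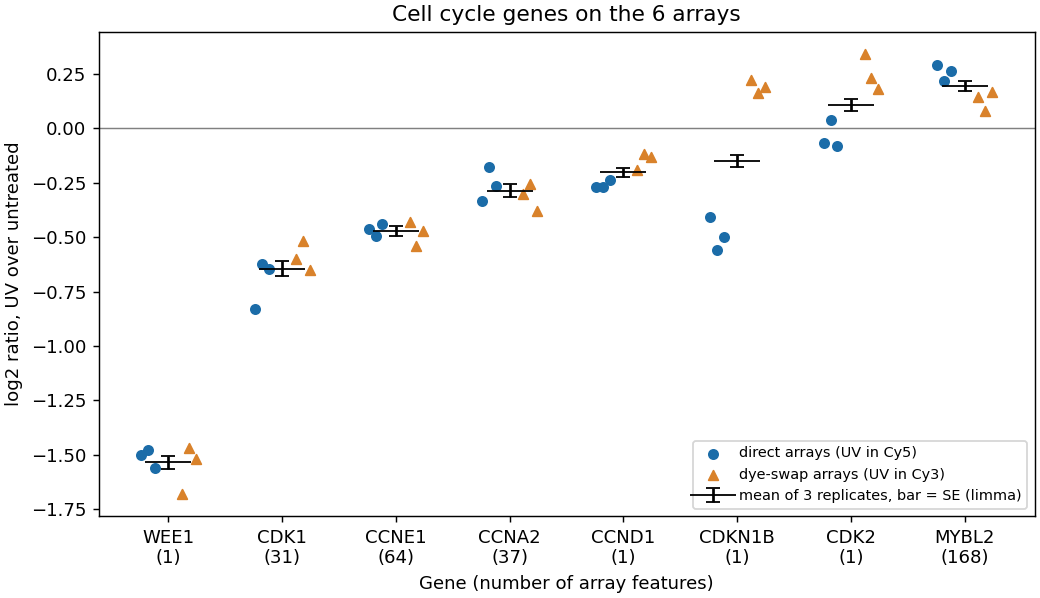
Log2 ratio of UV over untreated (vertical axis) for the 8 measured members (horizontal axis, with the number of array features), on 3 direct arrays (circles) and 3 dye-swap arrays (triangles), with the mean of 3 replicates and its SE from limma (black). WEE1 lay between -1.68 and -1.47 on all 6 arrays, whereas CDKN1B lay below 0 on the direct arrays and above 0 on the dye-swap arrays.

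Promoters of members are shown for 3 genes that fell, CDK1, CCNA2 and CCNE1, and for MYBL2, which rose. They were taken from RefSeq (GRCh38.p14), which held 7 of the 10 members in the table used. The 150 bases before the transcription start are printed 5′ to 3′. CDK1 had 2 starts in the table, and the downstream one is shown because it holds most of the motifs searched. Capitals mark 3 motifs on either strand: the cell cycle homology region TTTGAA, which binds complexes that repress or activate G2 and mitosis genes, the NF-Y box CCAAT, and GGCGGGA, found in many E2F sites.
CDK1, chr10:60778328-60778477, plus strand: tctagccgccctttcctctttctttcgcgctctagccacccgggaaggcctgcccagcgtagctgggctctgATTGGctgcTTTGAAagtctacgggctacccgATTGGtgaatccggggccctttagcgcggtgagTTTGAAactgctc
CCNA2, chr4:121823884-121824033, minus strand: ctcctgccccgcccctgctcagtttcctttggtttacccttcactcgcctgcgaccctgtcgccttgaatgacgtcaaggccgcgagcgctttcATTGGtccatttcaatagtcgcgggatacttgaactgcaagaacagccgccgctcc
CCNE1, chr19:29811841-29811990, plus strand: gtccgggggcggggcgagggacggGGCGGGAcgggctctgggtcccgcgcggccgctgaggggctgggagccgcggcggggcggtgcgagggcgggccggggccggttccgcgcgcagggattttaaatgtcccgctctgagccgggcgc
MYBL2, chr20:43666964-43667113, plus strand: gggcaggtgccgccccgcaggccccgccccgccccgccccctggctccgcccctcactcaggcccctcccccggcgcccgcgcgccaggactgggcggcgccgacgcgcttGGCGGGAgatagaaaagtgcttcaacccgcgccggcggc
The stretch of CDK1 holds a CCAAT box on the reverse strand 78 and 46 bases before the start and TTTGAA 69 and 13 bases before it. CCNA2 holds a reverse CCAAT box at 56 bases, CCNE1 holds GGCGGGA at 126 bases and MYBL2 holds it at 39 bases before the start. Over whole windows of 300 bases, 15.2% of 35116 promoters held TTTGAA, 34.6% CCAAT and 15.4% GGCGGGA, so these letters are common. The GGCGGGA of CCNA2, which lies 176 bases before its start, is upstream of the stretch shown. Only exact matches were searched. The near matches cttgaa in the stretch of CCNA2, which lie on both sides of its CCAAT box, are therefore not marked. A stretch without capitals is not shown to lack a motif. A match is a description of the sequence alone.

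Among the regulators of G1, the cyclin D1 gene CCND1 was slightly lower. Its 1 feature gave -0.27, -0.27 and -0.24 on direct arrays 1, 2 and 3 and -0.19, -0.12 and -0.13 on the matching dye-swap arrays. All 6 values lay below 0, with the direct arrays lower than the dye-swap arrays. By limma the mean log2 ratio was -0.20 (SE 0.0186, n = 3, adjusted p = 0.00152). It was called in each orientation alone, at -0.26 (direct) and -0.15 (dye-swap).

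CCNE1 and CDK2 encode partners in one kinase complex at the G1/S boundary. CCNE1 was lower on every array, whereas CDK2 had no settled direction. The gene means of CCNE1, over up to 62 features with a value of 64 on the array, were -0.46, -0.50 and -0.44 on the direct arrays and -0.43, -0.54 and -0.47 on the dye-swap arrays. The orientations overlapped, and the mean was -0.47 (SE 0.0227, n = 3, adjusted p = 0.000333 by limma). For CDK2 the 1 feature gave -0.07, 0.04 and -0.08 on the direct arrays and 0.34, 0.23 and 0.18 on the dye-swap arrays. These ranges did not overlap, and 2 of 6 values lay below 0. Its mean of 0.11 (SE 0.0256, adjusted p = 0.0226 by limma) was called, but the direct arrays alone gave -0.037 (adjusted p = 0.397). The call was also lost without replicate 1 (0.093, adjusted p = 0.121), without replicate 2 (0.093, adjusted p = 0.0609) and without replicate 3 (0.14, adjusted p = 0.0512).

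CDKN1B, the p27 inhibitor of cyclin E and cyclin A kinases, had no settled direction. Its 1 feature gave -0.41, -0.56 and -0.50 on the direct arrays and 0.22, 0.16 and 0.19 on the dye-swap arrays. The sign thus turned with the dye in 3 of 3 replicates. The mean of -0.15 (SE 0.0268, n = 3) passed by limma with an adjusted p of 0.00995, because the SE over replicate means leaves out the gap between the orientations. With the 6 arrays as separate values and the replicate block the same mean had an adjusted p of 0.117, and without replicate 3 it was -0.15 with an adjusted p of 0.0821. Each orientation alone was called, at -0.49 (direct) and 0.19 (dye-swap).

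CCNA2, the cyclin of S phase and G2, was lower on every array. Over up to 37 features the gene means were -0.34, -0.18 and -0.26 on the direct arrays and -0.30, -0.26 and -0.38 on the dye-swap arrays. The orientations overlapped, and the array of replicate 2 was the highest in both. The mean was -0.29 (SE 0.0290, n = 3, adjusted p = 0.00198 by limma), with -0.26 (direct) and -0.31 (dye-swap) in each orientation alone.

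Of the mitotic regulators, WEE1 and CDK1 fell most among all members. For WEE1, the kinase that holds CDK1 inactive, the 1 feature gave -1.50, -1.48 and -1.56 on the direct arrays and -1.68, -1.47 and -1.52 on the dye-swap arrays. The 6 values lay close together around a mean of -1.54 (SE 0.0285, adjusted p = 5.85e-05 by limma), and the orientations overlapped. WEE1 ranked 16 of 775 from the lowest gene, and it was the only member past 2-fold, as were 12.3% of the tested genes with 1 feature and 5.29% of all. Over up to 31 features CDK1 gave gene means of -0.83, -0.62 and -0.65 on the direct arrays and -0.60, -0.52 and -0.65 on the dye-swap arrays. All 6 lay below 0, and direct array 1 was the lowest. The mean was -0.64 (SE 0.0336, n = 3, adjusted p = 0.000375 by limma). Lower and past 1.3-fold, as CDK1 and CCNE1 were, lay 9.01% of the genes with 3 or more features.

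By the mean over both orientations MYBL2 was the highest member, but on the dye-swap arrays alone CDK2 (0.25) and CDKN1B (0.19) were higher. The gene means of MYBL2, over up to 164 features with a value of 168 on the array, were 0.29, 0.22 and 0.26 on the direct arrays and 0.14, 0.080 and 0.17 on the dye-swap arrays. All 6 values lay above 0, but every direct array was above every dye-swap array. The mean was 0.19 (SE 0.0225, n = 3, adjusted p = 0.00288 by limma), and it was called at 0.26 (direct) and 0.13 (dye-swap) in each orientation alone.

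In order of their means over both orientations, from lowest to highest, the members were WEE1, CDK1, CCNE1, CCNA2, CCND1, CDKN1B, CDK2 and MYBL2. The places of CDKN1B and CDK2 depended on the dye. On the direct arrays alone CDKN1B (-0.49) lay below CCNE1 (-0.47). On the dye-swap arrays alone CDK2 (0.25) and CDKN1B (0.19) lay above MYBL2 (0.13). The gap from WEE1 to CDK1 was 0.89 on the log2 scale and that from CCNE1 to CCNA2 0.19, and in neither pair did the values of any array overlap. CDK1 and CCNE1 did not overlap in their replicate values but did on single arrays. CCNA2 and CCND1 had overlapping replicate values, although CCND1 was higher by 0.023 to 0.14 within each of the 3 replicates. CCND1 and CDKN1B also overlapped, and their difference within replicates ran from -0.005 to 0.14, so that this order was not larger than the spread between replicates. CDKN1B and CDK2 differed by 0.205 to 0.335 within replicates and overlapped on single arrays. CDK2 and MYBL2 differed by 0.014 to 0.17 within replicates and overlapped on single arrays. Differences within replicates leave out the gap between the orientations.

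The genes most like WEE1 over the 6 arrays, by Euclidean distance of their log2 ratios among 760 other genes, were BCL10 (distance 0.35), an adaptor of NF-kB signalling, MPHOSPH10 (0.46), a nucleolar protein gene, and the ubiquitin ligase gene WWP1 (0.47). Each had 1 feature, as WEE1 has. Their means were -1.51, -1.66 and -1.36. For MYBL2 the nearest genes were MAPK3 (0.070), which encodes the kinase ERK1, RALY (0.070), which encodes an RNA-binding protein, and PXN (0.073), which encodes paxillin. Their means of 0.19, 0.17 and 0.18 came from 98, 120 and 131 features. This likeness is a description over 6 arrays that share 3 replicates.

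The next question was whether the features of one gene moved together. A feature was tested where at least 2 replicates had a value in both orientations. The features could not be assigned to exons or junctions or matched to copies of one probe, and their counts are therefore not counts of independent measurements. For CDK1, 25 of 28 tested features fell by limma and 0 rose (0 also at an unadjusted p under 0.05), for CCNE1 47 of 54 fell and 0 rose (0), and for CCNA2 28 of 36 fell and 0 rose (2 at an unadjusted p under 0.05). For MYBL2 109 of 152 rose and 0 fell (0). Over the whole array 28.2% of tested features fell and 26.3% rose. Falls past 1.3-fold were called for 21 features of CDK1, 31 of CCNE1 and 12 of CCNA2, against 11.6% of all features, and rises past 1.3-fold for 8 of MYBL2, against 2.21%. Of features with a value on all 6 arrays, 21 of 27 for CDK1, 44 of 47 for CCNE1 and 24 of 31 for CCNA2 lay below 0 on every array, against 23.3% of all such features, and 74 of 142 for MYBL2 lay above 0 on every array, against 17.3%.

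**Figure D2:**
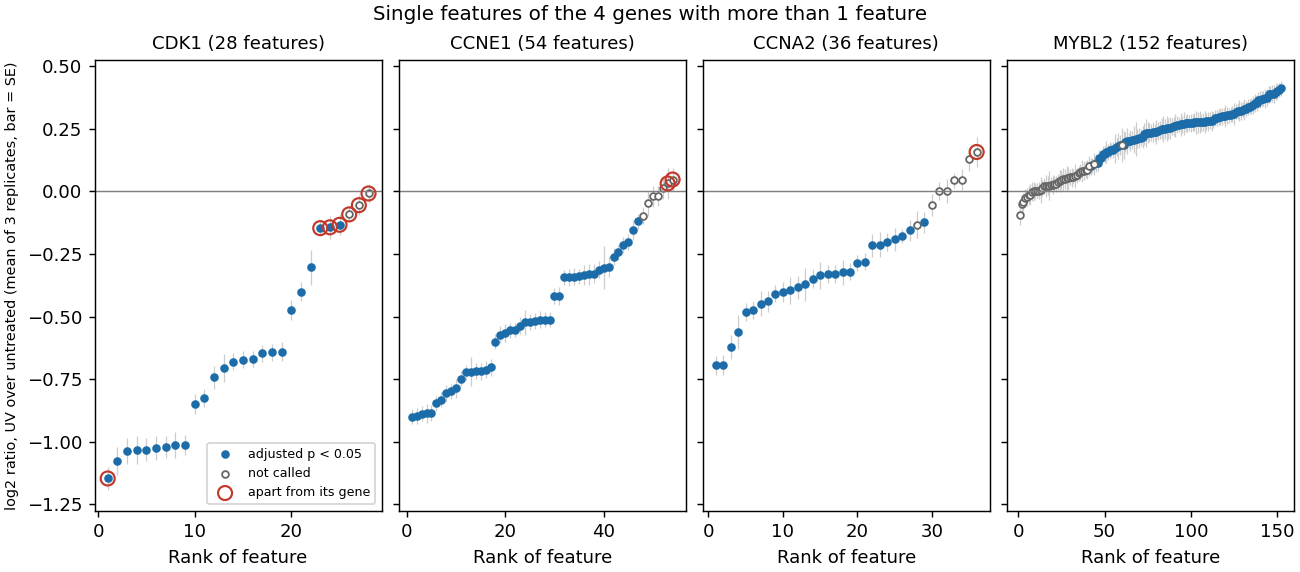
Log2 ratio of UV over untreated (vertical axis, mean of 3 replicates with its SE from limma) for each tested feature of CDK1, CCNE1, CCNA2 and MYBL2, ranked from lowest to highest (horizontal axis). Filled points passed an adjusted p of 0.05, and red rings mark the 10 features called apart from the rest of their gene, of which 6 are the features of CDK1 nearest to 0.

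The size of the change differed widely among the features of CDK1. Of its 28 tested features, 9 lay at or below a log2 ratio of -1, 10 between -1 and -0.5, 3 between -0.5 and -0.2, and 6 between -0.2 and 0.2. The lowest was -1.15 and the highest -0.0083, with a median of -0.68. The interquartile range of 0.64 compares with a median of 0.16 over 466 genes, and 25 genes had a larger one. The tested features of CCNE1 spread from -0.90 to 0.048 (interquartile range 0.42) and CCNA2 from -0.70 to 0.16 (0.26). MYBL2 was tighter, from -0.093 to 0.41 (0.21), with 89 of 152 features above 0.2 and the others between -0.2 and 0.2.

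To find features that did not follow their gene, the mean over the rest of the gene was subtracted from the ratio of each feature. This departure was called at an adjusted p of 0.05 by limma with a fold over 1.4. CDK1 had 7 of 28 features called (25%), against 3.92% of all tested features. Of these, 1 was lower and 6 were higher than the rest of the gene, against 2.16% and 1.76% of all features. The lower one (feature 26731) gave -1.40, -0.99 and -1.14 on the direct and -1.08, -1.06 and -1.21 on the dye-swap arrays. It fell with the gene and departed from it by -0.52 (SE 0.0292, adjusted p = 4.22e-05 by limma), but measured against the median of the other features it departed by -0.43 and lost its call. The highest one (feature 107) gave -0.17, -0.16 and -0.28 on the direct and 0.17, 0.29 and 0.10 on the dye-swap arrays. Its own mean was -0.0083 and it departed by 0.66 (SE 0.0367, adjusted p = 4.1e-05 by limma), with a sign that turned with the dye. The other five higher ones had log2 ratios from -0.15 to -0.055 and departures from 0.52 to 0.57. All 6 higher features thus changed by under 1.3-fold, in a gene that fell. A feature without change departs by about the size of its gene mean, which was past the required fold in CDK1. The median gene mean over all 775 genes was -0.027. The share called thus depends on the gene mean, and the share over all features is not a like comparison. Without the features called apart, a setting chosen after seeing the data, the mean of CDK1 was -0.76 in place of -0.64.

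CCNE1 had 2 of 54 features called and CCNA2 had 1 of 36, all higher than the rest of the gene. The gene means were 1.39-fold lower in CCNE1 and 1.22-fold lower in CCNA2, both under the required fold. A feature without change would thus mostly not be called in them, and the share over all features is again not a like comparison. The called features of CCNE1 had log2 ratios of 0.048 (feature 27228) and 0.032 (feature 18138) and departed by 0.51 each. The latter had 1 dye-swap array at 0.61 and the other five between -0.23 and 0.08, and without replicate 2, which holds that array, its departure was 0.39 and under the fold required. The feature of CCNA2 (feature 6592) was 0.16 and departed by 0.49, with values in 2 replicates only, and with the mean of all features as reference it was 0.48 and lost its call. The lowest tested features of these genes, at -0.90 in CCNE1 and -0.70 in CCNA2, departed by -0.44 and -0.42, which was under 1.4-fold. MYBL2 had 0 of 152 features called by limma, since its departures of -0.29 to 0.22 all lay under that fold. With a gene mean of 0.19, a feature of MYBL2 without change could not reach it.

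Features with an empty cell on some array had medians nearer to 0 than complete ones, but single ones did not follow this: feature 33154 of CCNE1, with values on the direct arrays only, was at -1.18, below every complete feature of the gene, and feature 43283 of CDK1, also with direct arrays only, was at -0.89. Median log2 ratios were -0.078 for 4 incomplete and -0.68 for 27 complete features of CDK1, -0.074 for 15 and -0.52 for 47 of CCNE1, 0.020 for 6 and -0.33 for 31 of CCNA2, and 0.030 for 22 and 0.24 for 142 of MYBL2. With complete features alone the gene means were -0.67 for CDK1, -0.53 for CCNE1, -0.33 for CCNA2 and 0.21 for MYBL2, and all 4 were called. The sources used here do not say what leaves a cell empty, and its part in the departures was not tested.

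The direct and dye-swap arrays were then compared. The difference of direct minus dye-swap arrays, divided by 2 and tested by limma over 3 replicates, passed for 51.9% of all genes and for 4 of 8 members. CDKN1B had the largest, at -0.34 (SE 0.0145, adjusted p = 0.000891), followed by CDK2 at -0.14 (SE 0.0251, adjusted p = 0.0128), MYBL2 at 0.064 and CCND1 at -0.057. For WEE1 it was 0.022, for CDK1 -0.055, for CCNE1 0.0072 and for CCNA2 0.026, none of which passed. Among single features, 88 of 152 of MYBL2, 18 of 54 of CCNE1, 14 of 36 of CCNA2 and 10 of 28 of CDK1 passed, against 48.6% of all features. In MYBL2 the direct arrays were the higher in 71 of the 88, and in CDK1 they were the lower in 9 of the 10. Opposite signs in the 2 orientations were seen in 2 of 28 features of CDK1, 5 of 54 of CCNE1, 9 of 36 of CCNA2 and 37 of 152 of MYBL2. The counts by direction and by sign are given without a share over all features. They describe these genes alone, and a feature with a ratio near 0 changes sign easily.

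**Figure D3:**
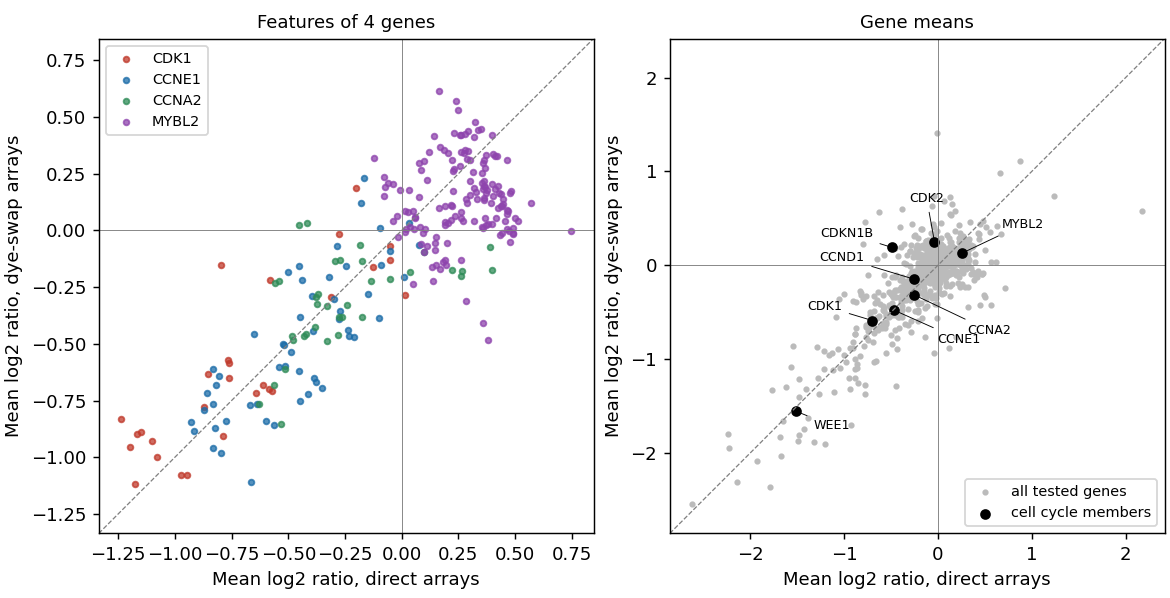
Mean log2 ratio (UV over untreated) on the 3 direct arrays (horizontal axis) against the 3 dye-swap arrays (vertical axis), for tested features of CDK1, CCNE1, CCNA2 and MYBL2 (left) and for gene means of all genes in grey with the 8 members in black (right). The dashed line marks equal values: WEE1, at -1.51 and -1.56, lies on it, and CDKN1B, at -0.49 and 0.19, lies far from it.

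Other genes of the cell cycle, and other genes of the cyclin and CDK families whatever their role, were taken from lists set by known roles. Of 124 listed genes 48 were tested, of which 29 fell, 7 rose and 12 did not pass, with a median log2 ratio of -0.16, against -0.027 for all 775 genes. The share that fell was 60.4%, against 41.4% of all genes, and 14.6% rose, against 30.3%. It is not a share of cell cycle genes alone, since it counts genes of transcription or splicing such as CCNT1, CDK12, CDK11B and CDK9, each called lower. Of 8 other cyclins, 5 fell and 2 rose. CCNT1, a partner of the transcription kinase CDK9, was lowest (-1.08, SE 0.0201), followed by CCNF (-0.67) and CCNG1 (-0.63), each with 1 feature. The D-type cyclin genes CCND3 (0.14, SE 0.0199) and CCND2 (0.083) rose, so that D-type cyclins did not move as one. CCND3 lost its call without replicate 3 (0.14, adjusted p = 0.0634 by limma), and dye-swap arrays by themselves gave 0.048 for CCND2 (adjusted p = 0.108 by limma). Of other kinases of the family 3 were tested, CDK12 (-0.23, SE 0.0236, 1 feature), CDK11B (-0.18, 1 feature) and CDK9 (-0.073), all transcription or splicing kinases. All fell, although CDK9 did not pass by limma in direct arrays by themselves (-0.015, adjusted p = 0.666). CDK6 had values on the direct arrays only (-0.93, -0.44 and -0.73), so that it was not tested over both orientations. Of 4 other CDK inhibitors 0 fell by limma (0 at an unadjusted p under 0.05) and 2 rose, namely CDKN2A (0.12, SE 0.0180), which encodes p16, and CDKN1A (0.10), which encodes p21. On dye-swap arrays by themselves neither rise passed by limma (CDKN2A 0.058, adjusted p = 0.106, and CDKN1A 0.057, adjusted p = 0.0879), and CDKN2A was also lost without replicate 1 (0.11, adjusted p = 0.0582) and without replicate 3 (0.13, adjusted p = 0.0614).

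Genes that control the inhibitory phosphate of CDK1, or the damage checkpoint above it, all had means nearer to 0 than WEE1. The sizes are not a like comparison, since WEE1 and CDC25B have 1 feature each. The other genes of this group are means over 35 (GADD45A) to 245 (CHEK2) features. Of all 11 tested, 6 fell and 1 rose. Of the falls, 3 did not pass by limma in one orientation: YWHAH (-0.065, adjusted p = 0.168) and CDC25B (-0.0033, adjusted p = 0.917) in direct arrays, and ATM, which turned to 0.029 (adjusted p = 0.284) in dye-swap arrays. The phosphatase gene CDC25A, which removes this phosphate, was lowest (-0.33, SE 0.0188), its relatives CDC25B and CDC25C were at -0.098 and -1e-04, and the checkpoint kinase gene CHEK1 fell by 0.25. GADD45A, a DNA damage gene, rose by 0.45 (SE 0.0188). Of 7 genes of the RB, E2F and MYB group 5 fell and 0 rose by limma, with E2F5 lowest (-1.31, SE 0.0278, 1 feature). Then came RBL2, which encodes the RB relative p130 (-0.81, 1 feature), MYC (-0.70), RBL1, which encodes p107 (-0.45, 1 feature), and E2F4 (-0.29). RB1 itself was at 6e-04. Of 10 spindle and mitosis genes 7 fell (AURKB, at -0.063, turned to 0.021 in direct arrays, adjusted p = 0.500 by limma), with the mitotic kinase genes AURKA (-0.70, SE 0.0215) and TTK (-0.61) lowest, and BIRC5, which encodes survivin, rose (0.18, SE 0.0178). In DNA replication CDC6, which loads the replicative helicase, fell by 0.63 (SE 0.0672, 1 feature), as did the kinase gene CDC7 by 0.15, which did not pass in dye-swap arrays (-0.058, adjusted p = 0.0613 by limma). Of the degradation genes CDC16, a subunit of the anaphase promoting complex, fell by 0.34 (SE 0.0760, 1 feature, not passing without replicate 3, adjusted p = 0.114 by limma). SKP2, which targets p27 for degradation, rose by 0.26 (SE 0.0175).

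**Figure D4:**
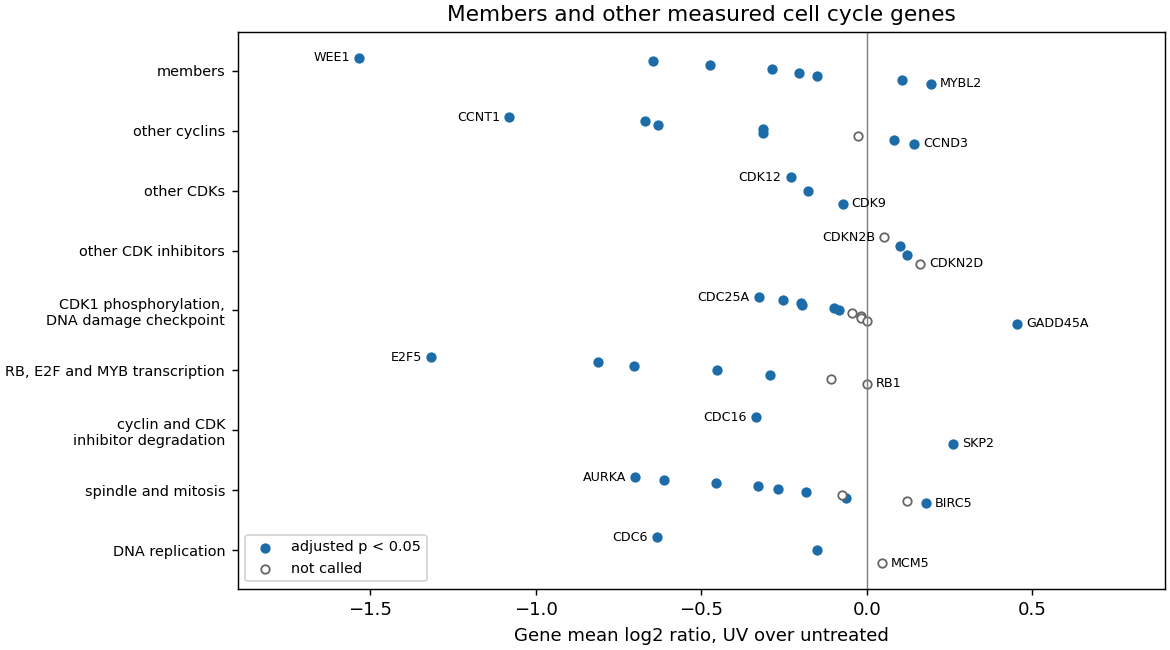
Gene mean log2 ratio of UV over untreated (horizontal axis) for the 8 measured members and for 48 other tested genes of the cell cycle or of the cyclin and CDK families, grouped by role (rows, with the lowest and highest gene of each group named). Filled points passed an adjusted p of 0.05 by limma: 29 of the 48 fell and 7 rose, with E2F5 and CCNT1 the only ones past 2-fold.

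Facts of the whole series set the limits of these values. Of the 45220 features 15.1% to 19.2% were empty per array, and array medians lay between -0.01 and 0.01. Arrays of one orientation correlated at 0.836 to 0.943 over features, and direct with dye-swap arrays at 0.538 to 0.663. None of 13 hepatocyte markers was a named feature, so the label of the cells was not checked against them. Of 16 markers of fibroblasts, endothelial and blood cells 3 were on the array, and all 3 were called higher (KDR by 0.071, FN1 by 0.24 and CD14, with 1 feature, by 0.25), against 30.3% of all genes. KDR did not pass in dye-swap arrays (0.051, adjusted p = 0.0898 by limma), and CD14 did not pass without replicate 3 (0.23, adjusted p = 0.0706 by limma). The samples were of a single cell line, and a ratio does not show which cells hold a marker. Whether Hep3B cells themselves express these markers was not checked, and the part of other cells in the members' values was not tested.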

How the data were processed

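The authors hybridized Cy5- and Cy3-labelled RNA to Agilent custom arrays, corrected background with normexp and normalized by LOWESS. The deposited values were log2 ratios, 1 column per array. Direct and dye-swap columns correlated above 0, so dye-swap columns had been turned already. UV over untreated was taken as the likely direction, from UV in Cy5 on direct arrays. The sources used here name no genome build for the array, and array number limits the precision.

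Features were named from the platform annotation, updated through RefSeq symbols (GRCh38.p14). Gene means per array were averaged over both orientations of a replicate, as one replicate is 2 arrays of the same RNA by the titles. Deviations from orientation means correlated at -0.0070, 0.452 and 0.101 in replicates 1, 2 and 3. Moderated tests against 0 by limma 3.58.1 (R 4.3.3, statmod 1.5.0), two-sided, were fitted on all named genes or features with at least 2 replicates, with Benjamini-Hochberg adjustment over all, and departures in genes with 3 or more features. The fits were tested on simulated data. Named were all members, the extreme features of each, the extreme called genes of each list and the 3 genes nearest to WEE1 and MYBL2; other list genes given and the features called apart were chosen after their values were seen. Members and lists were chosen with earlier results of these data known. The methods call the replicates biological and do not say how the cultures were kept apart, so p-values measure the spread between these 3.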

Additional observations from a re-analysis of the deposited data

Results flagged for a closer look

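For 4 members the direct and dye-swap arrays gave different ratios, by limma on their difference divided by 2. These were CDKN1B (-0.34, SE 0.0145), CDK2 (-0.14, SE 0.0251), MYBL2 (0.064, SE 0.0124) and CCND1 (-0.057, SE 0.0133). In direct and then dye-swap arrays CDKN1B was at -0.49 and 0.19, and CDK2 at -0.037 and 0.25. MYBL2 (0.26 and 0.13) and CCND1 (-0.26 and -0.15) kept their sign. Of all genes 51.9% differed in this way, beside 4 of 8 members. The difference lost its call without replicate 2 for CCND1 (-0.048) and MYBL2 (0.061) and without replicate 3 for CCND1 (-0.058), MYBL2 (0.072) and CDK2 (-0.15). No group of samples was large enough to look for single arrays that stand apart.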

How the results depend on the processing

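The falls of WEE1, CDK1, CCNE1, CCNA2 and CCND1 and the rise of MYBL2 kept their direction under every alternative run and their call under all but the threshold of the methods (unadjusted p under 0.01 and a fold over 1.3), which left WEE1, CDK1 and CCNE1. CDKN1B turned on the dye-swap arrays alone (0.19), CDK2 on the direct arrays alone (-0.037), CDK1 feature 107 on the dye-swap arrays (0.19) and CCNE1 feature 18138 on the direct arrays (-0.17). The threshold that the methods use for genes gave 162 genes and 3 members. Applied to single features, for which the methods do not set it, it gave 4739 features and 73 member features. Genes with 3 or more features alone gave 366 calls and 4 members, since fewer genes were tested. Called departures numbered 2014 on the dye-swap arrays alone, 130 at a fold of 2 and 4933 at 1.2. Among members, where 10 were called, they numbered 18 on the direct arrays, 16 on the dye-swap arrays, 0 at a fold of 2 by limma (no departure was that large at any p) and 49 at 1.2. Leaving out 1 replicate gave 311 (without replicate 3) to 637 genes in place of 556 and 6 to 7 members in place of 8, 9839 (without replicate 3, and 11656 without replicate 1) to 18062 features in place of 18693 and 153 to 208 member features in place of 213, 1185 to 1449 departures in place of 1331 and 6 (without replicate 1 or 3) to 8 among members, and 124 (without replicate 2, and 125 without replicate 3) to 435 genes with a dye difference in place of 402 and 1 to 5 members in place of 4. With the 6 arrays and the replicate block 589 genes were called by limma, and among members the call of CDKN1B alone was lost (adjusted p = 0.117). The fitted correlation within a replicate was -0.506 for genes. A value below 0 makes the SE of a mean smaller than for 6 independent arrays, so that this count is not a stricter check. The cause of these differences was not tested. Another background correction, another normalization, a filter on dim features and a slide block were not run, since scanner signal was not used here. The mean without features called apart was chosen after seeing the data.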
